A study of Mus musculus with 12 samples.

Results

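Espin (*Espn*), whirlin (*Whrn*), *Eps8*, *Eps8l2*, fascin 2 (*Fscn2*), *Ptprq*, *Xirp2*, *Triobp*, *Grxcr1* and *Loxhd1* encode proteins of the hair bundle, its actin and its surface. These 10 genes were taken by symbol from the 27754 genes of a table of normalized counts of the postnatal mouse cochlea, without use of their measured values. All 10 were found in the table and all 10 passed the minimum level set for testing, a mean of 10 normalized counts over the libraries.

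The hair bundle is the mechanosensitive organelle of the hair cell. It is a staircase of stereocilia, which are actin-filled protrusions of the cell's upper surface. Parallel actin filaments fill each stereocilium, taper at its base and continue as a rootlet into the cell, while proteins at its tip set its length and a coat and links on its membrane hold the bundle together. In the mouse cochlea the bundles go on growing and maturing through the days after birth, and variants of all the genes named above are known as causes of deafness or of bundle defects in mice or humans.

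RNA was sequenced from the cochlear sensory epithelium of pups of a mixed C57BL/6 and CD1 background, with both ears of 1 pup in each library. Treated pups carried Sox2-CreER and 1 floxed allele of exon 3 of *Ctnnb1* (β-catenin-flox(Exon3)/+), so that tamoxifen removes exon 3 and stabilizes β-catenin, the effector of canonical Wnt signaling. Untreated pups were littermates with the same floxed allele and without Cre, and they were exposed to tamoxifen as well. Mothers received tamoxifen on day 1 or day 4 after delivery, and the pups took it up with the milk. The groups are named by that day, so that P1 tissue was collected at postnatal day 4 and P4 tissue at postnatal day 7. Treated pups gave 3 libraries at P1 and 2 at P4, and untreated pups 3 at each. P4 treated replicate 2 had no values in the table of normalized counts and was not analysed here. The paper left out a sample whose *Ctnnb1* transcripts showed no excision of exon 3, and its main text does not name that sample. Sox2-CreER acts in SOX2+ cells, which at these ages are mainly supporting cells, the neighbors of the hair cells in which the bundle genes are chiefly used. Cell Recovery Solution had been used to separate the epithelium, hair cells and supporting cells together, from mesenchyme and neurons. A lower level in such bulk samples can come from fewer cells of a type or from less RNA per cell, and these cannot be told apart.

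The normalized counts summed to 41.2 to 44.2 M per library. Hair cell markers were present in every library, with sums over 14 markers of 32082 to 51778 normalized counts. *Ctnnb1* stood at 24107 to 25048 in P1 treated and 19820 to 25308 in P1 untreated libraries and at 28951 to 31167 in P4 treated and 25724 to 30429 in P4 untreated libraries, and counts per gene do not show the loss of the exon. The Wnt target *Axin2* stood at 488 to 650 in P1 treated against 606 to 970 in P1 untreated libraries, and at 242 and 277 in P4 treated against 211 to 389 in P4 untreated libraries, which overlapped at both ages. The female-specific *Xist* was at 2794 and 3030 in P1 untreated replicates 3 and 2 and at 16 in replicate 1, at 13 to 26 in P1 treated, at 32 to 39 in P4 untreated, and at 3268 and 4180 in P4 treated libraries. Sex and age can therefore not be told apart in the treated libraries, nor sex and treatment at P4. Sex was also unevenly spread over the ages in untreated libraries and over the treatments at P1, where all 3 treated libraries were low in *Xist* and 2 of 3 untreated ones high, so it enters the interaction too. Markers of other cell types were present in every library, with sums over 9 mesenchyme markers of 130426 to 213532 and over 6 glia markers of 21180 to 35009 normalized counts. The mesenchyme markers had a mean log2 level of 10.49 to 12.31 in P1 treated and 12.04 to 12.35 in P1 untreated libraries. At P4 it was 10.57 to 11.27 in treated and 11.61 to 11.90 in untreated libraries, and their part in the results was not tested.

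*Whrn* and *Grxcr1* were lower and *Loxhd1* was higher in P4 than in P1 untreated cochleae, and no bundle gene of the 10 was called between treated and untreated cochleae. For *Grxcr1* and *Whrn* the bases before the transcription start are shown, since these were the genes called lower with age. RefSeq promoter windows of GRCm38.p6 matched 7 of the 10 genes with 10 windows, of which *Espn* had 3 and *Triobp* had 2. *Eps8*, *Ptprq* and *Loxhd1* had no window in use here. The window of *Grxcr1* lies at chr5:68031585-68031834 on the plus strand and that of *Whrn* at chr4:63495992-63496241 on the minus strand. Each is the 250 bases before the start, written 5′ to 3′, with any match to 1 of 4 motifs in capitals.
Grxcr1: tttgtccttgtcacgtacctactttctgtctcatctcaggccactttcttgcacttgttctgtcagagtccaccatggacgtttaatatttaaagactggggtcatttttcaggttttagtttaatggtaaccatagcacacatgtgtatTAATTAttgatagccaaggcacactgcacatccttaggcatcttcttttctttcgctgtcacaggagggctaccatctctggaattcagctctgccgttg
Whrn: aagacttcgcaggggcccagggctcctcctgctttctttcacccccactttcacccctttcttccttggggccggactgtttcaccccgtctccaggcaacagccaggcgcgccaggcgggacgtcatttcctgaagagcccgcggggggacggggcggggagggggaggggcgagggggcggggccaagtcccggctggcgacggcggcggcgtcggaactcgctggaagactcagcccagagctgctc
The motifs were CAGNTG, the E-box bound by ATOH1 and other bHLH factors, TAATTA, a core bound by many homeodomain factors, and CTTTGAA and CTTTGAT, which TCF/LEF factors bind, each sought on both strands in windows of 300 bases. The *Grxcr1* window held TAATTA at position -100 from the start, and the *Whrn* window held none of the 4. TAATTA was found in 2 of the 10 windows, those of *Grxcr1* and of 1 *Espn* start, and in 5.29% of all 32851 windows. CAGNTG was found in 4 of the 10 windows against 51.4% of all. CTTTGAA and CTTTGAT were in 0 of the 10 windows against 5.14% and 3.73% of all. A match is a description of these letters and not evidence of binding.

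The first question was how the bundle genes differed between the ages without β-catenin stabilization. Differences are given as P4 minus P1 on the scale of log2(normalized count + 1), and the test was limma with Benjamini-Hochberg adjustment over 18400 genes. Calls required an adjusted p under 0.05 and a difference of more than 0.32 on the log2 scale in either direction. Of the 10 genes, 1 was called higher (*Loxhd1*) and 2 lower (*Whrn* and *Grxcr1*) at P4, and 7 were not called. Among all genes tested, 9.38% were called higher and 10.5% lower. The median difference of the 10 genes was 0.16 and that of all genes tested was -0.02. The libraries of P1 and P4 did not overlap for 3 of the 10 genes (*Whrn*, *Loxhd1* and *Triobp*) and for 41.3% of all genes.

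**Figure D1:**
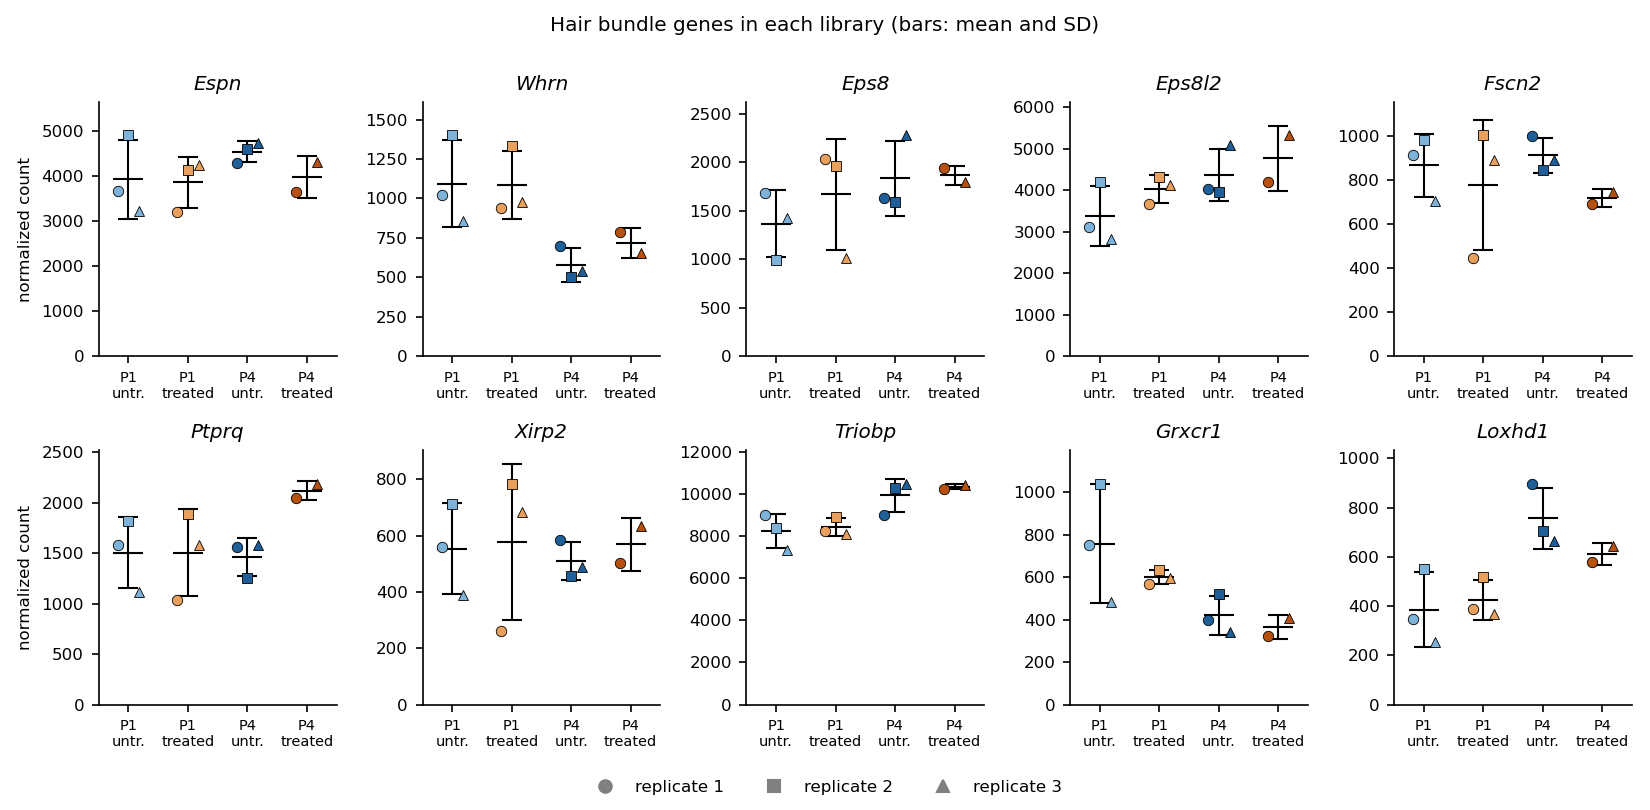
Normalized counts of the 10 hair bundle genes (vertical axes, from 0) in each library by group (horizontal axes), with replicates as symbols and the mean and SD as bars. All P4 libraries of *Whrn* (500 to 787) lie below all P1 libraries (860 to 1400), and all P4 libraries of *Loxhd1* (579 to 898) lie above all P1 libraries (254 to 552).

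Whirlin is a scaffold protein with PDZ domains. Its isoforms serve the stereocilia tips, where it is carried by myosin XVa, and the ankle links near the base. *Whrn* (chromosome 4, 63414910 to 63495991, minus strand, GRCm38) stood at 1022, 1400 and 860 normalized counts in P1 untreated replicates 1 to 3 and at 699, 500 and 538 in P4 untreated replicates 1 to 3. All P4 values lay below all P1 values. The means were 1094 ± 277 and 579 ± 106 (SD, n = 3 each), a difference of -0.90 on the log2 scale (standard error 0.207, 95% interval -1.36 to -0.44, adjusted p = 0.0124 from limma). This call was made without each of the 6 libraries in turn, with differences of -1.06 to -0.71. With log2 *Xist* as a covariate the difference was -0.87 (adjusted p = 0.0812 from limma) and was not called. The gene has 17 annotated transcripts, and counts per gene do not separate the long from the short isoforms.

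GRXCR1 is a protein with a glutaredoxin-like domain that is needed for the growth of stereocilia. *Grxcr1* (chromosome 5, 68031835 to 68166398, plus strand) stood at 750, 1040 and 481 normalized counts in P1 untreated replicates 1 to 3 and at 399, 519 and 339 in P4 untreated replicates 1 to 3. The groups overlapped, since P1 replicate 3 lay below P4 replicate 2. The means were 757 ± 280 and 419 ± 91.7 (SD, n = 3 each), a difference of -0.80 (standard error 0.256, 95% interval -1.37 to -0.24, adjusted p = 0.048 from limma). The *Grxcr1* call was lost without P1 untreated replicate 1 (adjusted p = 0.117), P1 untreated replicate 2 (0.143), P4 untreated replicate 1 (0.112) or P4 untreated replicate 3 (0.152), and with log2 *Xist* as a covariate (-0.86, adjusted p = 0.146), all from limma. Its paralog *Grxcr2*, which encodes a protein of the stereocilia base, fell from 2088 ± 589 to 1215 ± 118 (SD, n = 3 each), a difference of -0.75 (adjusted p = 0.0132 from limma).

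LOXHD1 is built of PLAT domains and lies along the membrane of the stereocilia, where it is needed for mature mechanotransduction. *Loxhd1* stood at 347, 552 and 254 normalized counts in P1 untreated replicates 1 to 3 and at 898, 707 and 664 in P4 untreated replicates 1 to 3. Every P4 value lay above every P1 value. The means were 384.3 ± 152 and 756.3 ± 125 (SD, n = 3 each), a difference of 1.04 (standard error 0.258, 95% interval 0.47 to 1.61, adjusted p = 0.0177 from limma). The *Loxhd1* call was lost without P1 untreated replicate 1 (adjusted p = 0.0547), P1 untreated replicate 3 (0.0575) or P4 untreated replicate 1 (0.0634), and with log2 *Xist* as a covariate (1.07, adjusted p = 0.0841), all from limma.

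TRIOBP bundles the actin of the rootlets, and other products of the gene are made in many cell types. *Triobp* (chromosome 15, 78947724 to 79005869, plus strand) stood at 9006, 8383 and 7371 in P1 untreated and at 9022, 10300 and 10517 in P4 untreated libraries. The groups did not overlap, but the highest P1 and the lowest P4 library, replicate 1 of each, were nearly level. The difference was 0.27 (standard error 0.089, 95% interval 0.07 to 0.47, adjusted p = 0.0539 from limma), below the size required for a call, and it passed without P1 untreated replicate 1 (adjusted p = 0.0439) or P4 untreated replicate 1 (0.0364). Of its 12 annotated transcripts, those of the rootlet isoforms were not read separately.

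EPS8 and EPS8L2 bind actin and cap or bundle it at the tips of the stereocilia, EPS8 chiefly in the tallest row. *Eps8l2* (chromosome 7, 141338880 to 141363020, plus strand) stood at 3111, 4192 and 2821 in P1 untreated and at 4043, 3965 and 5095 in P4 untreated libraries. P1 replicate 2 lay within the P4 range, and the difference of 0.38 (95% interval 0.03 to 0.74, adjusted p = 0.112 from limma) was called without that library (0.55, adjusted p = 0.0282 from limma). *Eps8l2* shares 1729 bases of exon with B230206H07Rik on the opposite strand, which stood at a mean of 68.6 normalized counts, and reads of the pair cannot be told apart without strand. *Eps8* (chromosome 6, 137477245 to 137654876, minus strand) stood at 1682, 997 and 1422 in P1 untreated and at 1633, 1590 and 2277 in P4 untreated libraries. Its groups overlapped, with a difference of 0.44 (95% interval -0.17 to 1.05, adjusted p = 0.288 from limma).

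Espin and fascin 2 cross-link the actin filaments of the core. *Espn* (chromosome 4, 152120331 to 152152371, minus strand) stood at 3663, 4906 and 3219 in P1 untreated and at 4286, 4611 and 4742 in P4 untreated libraries. P1 replicate 2 was the highest of the 6 libraries and P1 replicate 3 the lowest. The difference was 0.23 (95% interval -0.12 to 0.58, adjusted p = 0.321 from limma). *Fscn2* (chromosome 11, 120361534 to 120368168, plus strand) stood at 912, 979 and 705 in P1 untreated and at 999, 843 and 890 in P4 untreated libraries, with a difference of 0.08 (95% interval -0.50 to 0.66, adjusted p = 0.853 from limma). The *Fscn2* ranges of both ages covered nearly the same levels.

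XIRP2 binds actin, takes part in the repair of stereocilia and is also a protein of striated muscle. *Xirp2* (chromosome 2, 67446002 to 67526614, plus strand) stood at 561, 712 and 388 in P1 untreated and at 586, 455 and 488 in P4 untreated libraries. The P4 values lay inside the P1 range, with a difference of -0.08 (95% interval -0.91 to 0.74, adjusted p = 0.901 from limma). The 10 striated muscle markers in the table summed to 76 to 199 normalized counts in the 11 libraries, below *Xirp2* itself in each of them, and 4 of the 10 were high enough to be tested. PTPRQ is a receptor-like phosphatase of the shaft connectors, which coats the lower part of the stereocilia. *Ptprq* (chromosome 10, 107517049 to 107720051, minus strand) stood at 1581, 1822 and 1120 in P1 untreated and at 1561, 1251 and 1586 in P4 untreated libraries, and its difference was -0.02 (95% interval -0.52 to 0.49, adjusted p = 0.965 from limma).

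**Figure D2:**
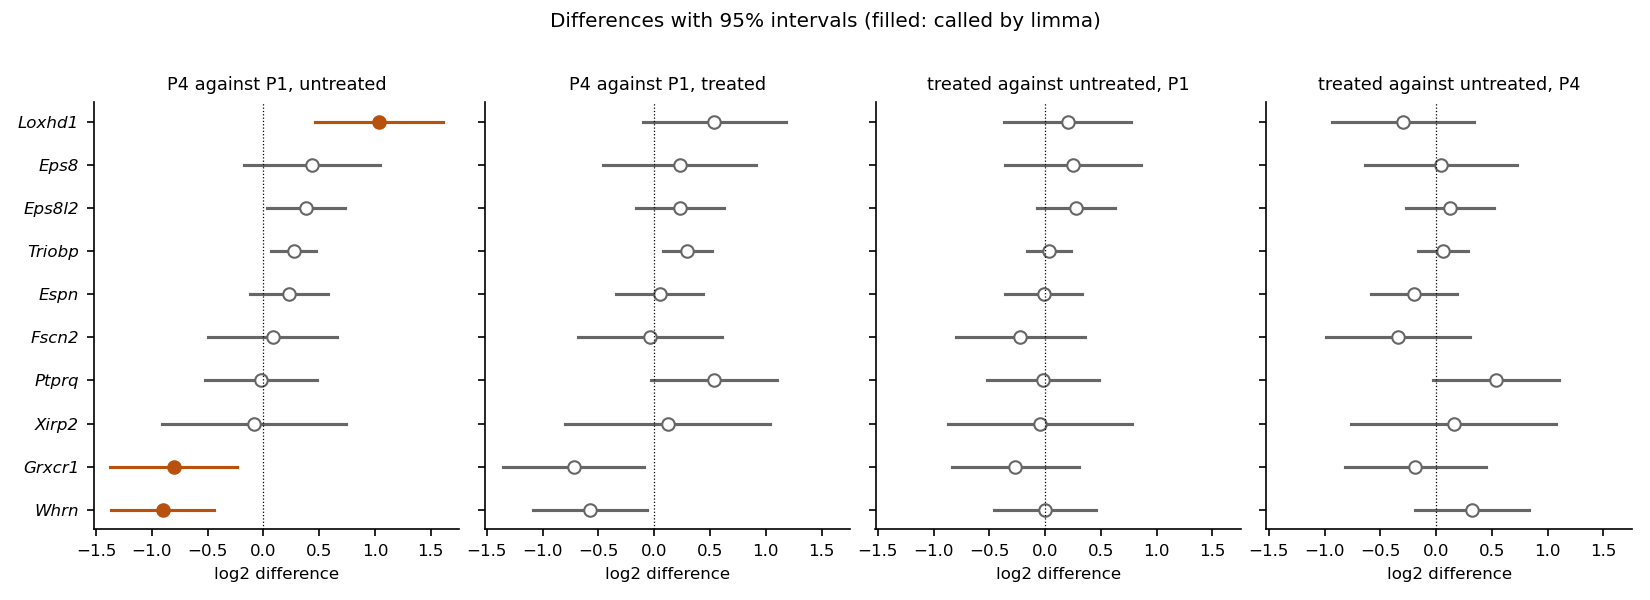
Differences on the log2 scale (horizontal axes) of the 10 hair bundle genes (vertical axis, in the order of the first panel) in 4 comparisons, with 95% intervals from limma as lines. The filled points are the calls, *Loxhd1* at 1.04, *Grxcr1* at -0.80 and *Whrn* at -0.90 between untreated ages, and the other 3 panels hold none.

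Hair cell markers were set beside these values. The mean log2 level of *Myo7a*, *Pou4f3*, *Gfi1*, *Barhl1* and *Lhx3* was 9.62 to 10.27 in P1 untreated and 10.03 to 10.06 in P4 untreated libraries, so the P4 values lay inside the P1 range. These 5 did not move alike, since *Barhl1* was itself called lower at P4 (-0.66, adjusted p = 0.0305 from limma), nor was the whole list of 14 hair cell markers level. Of the 14, 5 were called higher (*Slc17a8* 2.39, *Cabp2* 1.39, *Chrna9* 0.80, *Otof* 0.76 and *Cacna1d* 0.62) and 3 lower (*Atoh1* -1.14, *Rasd2* -0.82 and *Barhl1*), with a median of 0.31. Taken relative to the mean of *Myo7a*, *Pou4f3*, *Gfi1*, *Barhl1* and *Lhx3*, the differences were -0.97 for *Whrn* (adjusted p = 0.0118 from limma), -0.87 for *Grxcr1* (adjusted p = 0.0482) and 0.97 for *Loxhd1* (adjusted p = 0.0219), and the 3 calls held. With this scaling 6.73% of all genes were called, against 19.9% without it. Of 6 markers of outer hair cells, 3 were called higher at P4. Their sums were 8528 to 15066 in P1 untreated and 26691 to 32419 in P4 untreated libraries, with no overlap. The oncomodulin gene *Ocm* had a difference of 3.46 and the prestin gene *Slc26a5* one of 3.15 (adjusted p = 0.00137 and 0.00158 from limma). The part of outer hair cells in the difference of *Loxhd1* was not tested.

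Levels between genes were compared per kb of annotated exon. In P1 untreated libraries the order was *Grxcr1* (706.8 ± 261 normalized counts per kb), *Triobp* (670.9 ± 67.1), *Eps8l2* (627.6 ± 134), *Espn* (475 ± 106), *Fscn2* (410.1 ± 67.7), *Ptprq* (201 ± 47.6), *Whrn* (149.1 ± 37.8), *Eps8* (110.6 ± 28), *Xirp2* (46.22 ± 13.5) and *Loxhd1* (43.19 ± 17.1, SD, n = 3 each). The first 3 overlapped in range, as did each of the other neighbors except *Fscn2* with *Ptprq* and *Eps8* with *Xirp2*. In P4 untreated libraries the order began with *Eps8l2* (812.3 ± 117) and *Triobp* (808.5 ± 65.7), which overlapped, followed by *Espn* (549.6 ± 28.4), *Fscn2* (431.6 ± 37.9) and *Grxcr1* (391.2 ± 85.6), the last pair of which overlapped. *Ptprq* (195.5 ± 24.9) and *Eps8* (148.4 ± 31.1) came next and overlapped, then *Loxhd1* (84.99 ± 14) and *Whrn* (78.92 ± 14.4), which also overlapped, and *Xirp2* (42.55 ± 5.69, SD, n = 3 each) was last. On this scale 4 genes had a higher mean than *Grxcr1* in P4 untreated libraries and none did in P1 untreated ones. In P1 treated libraries *Eps8l2* (751 ± 62.5) and *Triobp* (685.8 ± 35.9) stood above *Grxcr1* (559.9 ± 30, SD, n = 3 each), so its first place was not shared by all P1 libraries. Annotated exons include some that these cells may not use, so the values per kb may be too low for genes with many transcripts such as *Espn*, which has 20.

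The same comparison of ages was made in treated cochleae, with 3 P1 and 2 P4 libraries. limma called 0 of the 10 genes, against 5.42% of all genes called higher and 5.63% lower at P4, and 3 of the 10 had an unadjusted p under 0.05. *Whrn* stood at 939, 1331 and 980 in P1 treated replicates 1 to 3 and at 787 and 653 in P4 treated replicates 1 and 3, a difference of -0.58 (standard error 0.232, 95% interval -1.09 to -0.06, adjusted p = 0.138 from limma). *Grxcr1* stood at 569, 633 and 597 and at 324 and 406, a difference of -0.72 (standard error 0.286, 95% interval -1.36 to -0.09, adjusted p = 0.133 from limma). In both genes the P4 libraries lay below all P1 libraries. *Triobp* stood at 8242, 8942 and 8126 and at 10275 and 10451, a difference of 0.30 (standard error 0.0995, adjusted p = 0.0822 from limma). *Loxhd1* stood at 387, 518 and 369 and at 579 and 644 (difference 0.54, adjusted p = 0.257 from limma), and *Ptprq* at 1037, 1893 and 1586 and at 2053 and 2192 (0.54, adjusted p = 0.201). These 3 were higher in both P4 libraries than in any P1 library. Groups did not overlap for 5 of the 10 genes and for 43.1% of all genes. That *Whrn*, *Grxcr1* and *Loxhd1* were called in untreated and not in treated cochleae does not show a difference between them. The interaction of treatment and age, the effect of treatment at P1 minus that at P4, was -0.33 for *Whrn* (95% interval -1.02 to 0.37), -0.08 for *Grxcr1* (-0.93 to 0.77) and 0.50 for *Loxhd1* (-0.36 to 1.35), with adjusted p of 0.9, 0.989 and 0.888 from limma.

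The next question was whether β-catenin stabilization in SOX2+ cells moved the bundle genes. At P1, limma called 0 of the 10 genes between treated and untreated cochleae, none had an unadjusted p under 0.05, and the groups overlapped for all 10. Among all genes, 0.353% were called and 15.3% did not overlap between the groups. Means were close for *Espn* (3861 ± 573 treated and 3929 ± 874 untreated), *Whrn* (1083 ± 215 and 1094 ± 277), *Ptprq* (1505 ± 434 and 1508 ± 357) and *Triobp* (8437 ± 441 and 8253 ± 825, SD, n = 3 each). The largest differences, treated minus untreated, were 0.28 for *Eps8l2* (95% interval -0.08 to 0.63, adjusted p = 0.545 from limma) and -0.27 for *Grxcr1* (-0.84 to 0.30, adjusted p = 0.767). The 95% intervals of all 10 genes lay within a 2-fold change in either direction, from -0.87 at the lowest to 0.86 at the highest bound, both on the log2 scale. Smaller changes were not resolved, the half-width of the interval being 0.20 for *Triobp* and 0.82 for *Xirp2*. In the same comparison 3 of 14 supporting cell markers were called higher and 1 lower. Among them were *Lgr5* (1.87, adjusted p = 0.00087) and *Sox2* (-0.67, adjusted p = 0.03, both from limma). The paper lists lower *Sox2* levels with knock-in alleles like Sox2-CreER as a limitation. Only treated pups carried that allele, so its effect on *Sox2* cannot be told apart from that of stabilization.

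At P4, with 2 treated libraries, both high in *Xist*, and 3 untreated ones, all low in it, sex and treatment cannot be told apart. Here limma called 0 of the 10 genes and none had an unadjusted p under 0.05, against 0.0543% of all genes called. *Ptprq* stood at 2053 and 2192 in P4 treated replicates 1 and 3 and at 1561, 1251 and 1586 in P4 untreated libraries. Both treated libraries lay above all untreated ones, and above all P1 libraries too, and the difference of 0.54 (standard error 0.254, 95% interval -0.02 to 1.11) did not pass (adjusted p = 0.447 from limma). *Fscn2* stood at 689 and 745 in treated and 999, 843 and 890 in untreated libraries (difference -0.34, 95% interval -0.99 to 0.31, adjusted p = 0.683 from limma), and *Loxhd1* at 579 and 644 against 898, 707 and 664 (-0.30, 95% interval -0.94 to 0.34, adjusted p = 0.728). Both were lower in each treated library than in any untreated one. The groups did not overlap for these 3 genes and for 33.5% of all genes. For 8 of the 10 genes the 95% interval lay within a 2-fold change, and *Ptprq* and *Xirp2* were the exceptions. The interaction was called for 0 of the 10 genes and for 0 of all genes (0%), of which 1067 had an unadjusted p under 0.05, and none of the 10 did. The largest interaction was that of *Ptprq* (-0.56, 95% interval -1.32 to 0.20, adjusted p = 0.868 from limma). The paper, which used DESeq2, reported genes with a significant interaction of age and treatment, *Lgr5* and *Edar* among them. It also reported more genes changed by treatment at each age than limma called here. The shares of all genes called are therefore those of this limma fit and not of the data under any test. The comparisons share groups and are not independent of each other.

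Other genes of the hair bundle were taken from 6 lists by role, 46 genes of which 45 were in the table and 44 were tested. Between untreated ages 4 were called higher and 6 lower at P4, and 34 were not called. That is 22.7% called in either direction, near the 19.9% of all genes, so the count itself is no result about bundle genes. Their median difference was 0.04. Among 9 genes of the actin core, *Espnl*, which encodes a protein like espin, rose by 0.88 (adjusted p = 0.0178 from limma), and the plastin genes *Pls3* (-1.04, adjusted p = 3.39e-04) and *Pls1* (-0.56, adjusted p = 0.0336) fell. Of 8 genes of the tip and of row identity, *Myo15*, whose motor carries whirlin and EPS8 to the tip, rose from 576.7 ± 231 to 1205 ± 126 normalized counts (1.14, adjusted p = 0.00909 from limma), while *Whrn* fell. Of 8 genes of the base and taper, *Clic5* (-0.69, adjusted p = 0.0122 from limma) and *Grxcr2* were called lower and none higher. None of 5 ankle link genes, the other partners of whirlin, was called by limma, and 1 had an unadjusted p under 0.05.

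Of 4 genes of the surface and of connectors, *Strc*, which encodes stereocilin of the top connectors, rose (0.97, adjusted p = 0.0394 from limma) and *Pkhd1l1*, which encodes a protein of the stereocilia coat, fell from 310 ± 97.3 to 116.7 ± 24 normalized counts (-1.38, adjusted p = 0.0403). Of 10 genes of the tip link and of transduction, *Tmc1* rose (1.42, adjusted p = 0.00626 from limma) and *Tmc2*, the channel gene of immature hair cells, fell (-1.70, adjusted p = 0.0348). Without each of the 6 libraries in turn, the calls of *Pls3*, *Clic5*, *Grxcr2*, *Myo15* and *Tmc1* were kept every time. Those of *Pkhd1l1* were lost 6 times, of *Strc* and *Pls1* 5 times, of *Tmc2* 4 times and of *Espnl* 3 times, with adjusted p up to 0.121. With the replicate number as a block, *Pls1* (adjusted p = 0.0578), *Strc* (0.0519) and *Tmc2* (0.0605) lost their calls, and with log2 *Xist* as a covariate 7 of the 10 did, among them *Myo15* (adjusted p = 0.0717) and *Grxcr2* (0.0708), while *Pls3*, *Clic5* and *Tmc1* were still called. Relative to the hair cell markers, *Pls1* (adjusted p = 0.113 from limma) and *Clic5* (0.0614) lost their calls and the others kept them.

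**Figure D3:**
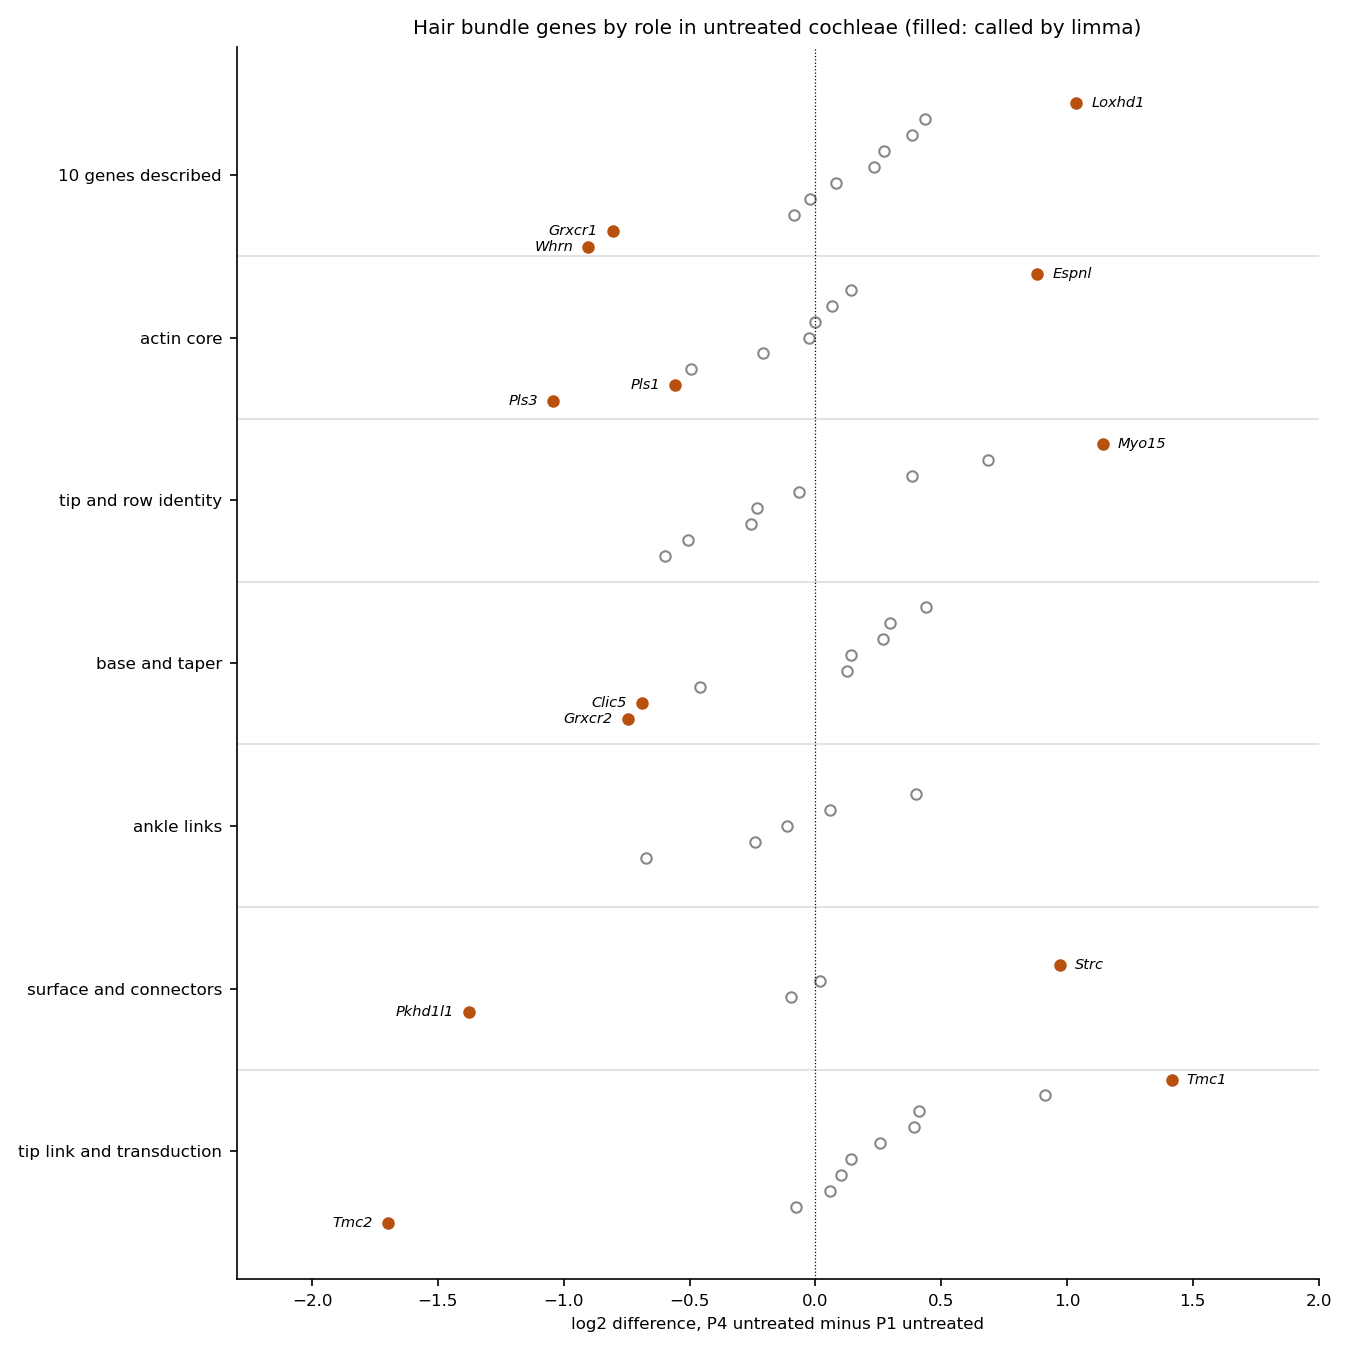
Differences between P4 and P1 untreated cochleae on the log2 scale (horizontal axis) of the 10 hair bundle genes and of 44 other bundle genes in 6 lists by role (vertical axis), with genes called by limma filled and named. Lists hold calls in both directions, such as *Tmc1* (1.42) and *Tmc2* (-1.70), except the lists of ankle links, tip and row identity, and base and taper.

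In treated cochleae, 3 of the 44 other genes were called higher (*Espnl* 0.89, *Tmc1* 1.09 and *Lcp1*, which encodes plastin 2, 0.92) and 1 lower (*Pls3* -0.61) at P4, with adjusted p of 0.042, 0.0491, 0.0324 and 0.0152 from limma. These are 9.09% of the 44 genes, against 11.1% of all genes. Each of these calls was lost without at least 2 of the 5 libraries and with log2 *Xist* as a covariate. Leaving out a P4 treated library left 1 in that group. The fit with *Xist* called 28 of 18400 genes (0.152%) between treated ages, where sex and age cannot be told apart. All 7 immune markers had positive differences there too (median 0.355), and 0 were called. *Lcp1* stood at 741 and 443 in P4 treated replicates 1 and 3, with immune marker sums of 4077 and 2517. In P1 treated replicate 1 *Lcp1* stood at 300, with a sum of 2877. The part of immune cells in the *Lcp1* difference was not tested. Between treated and untreated cochleae, 0 of the 44 were called by limma at P1 and 0 at P4, and 4 had an unadjusted p under 0.05 at each age (9.09%, against 12.2% of all genes at P1 and 11.6% at P4). Of all genes, 0.353% and 0.0543% were called.

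Of the 10 genes, 9 had a positive correlation with the hair cell markers from pup to pup within groups, and *Eps8* did not. P1 untreated replicate 3 was the lowest of its group for 9 of the 10 genes and replicate 2 the highest for 8. Among P1 treated libraries, replicate 1 was the lowest for 7 genes and replicate 2 the highest for 8. The 5 hair cell markers had the same order in these P1 groups. Their mean log2 levels were 9.62 in P1 untreated replicate 3 and 10.27 in replicate 2. In P1 treated libraries they were 9.72 in replicate 1 and 10.37 in replicate 2. At P4 the markers were nearly level and the genes did not share their order. P4 treated replicate 3 was the highest for 8 genes, with markers at 9.975 against 9.99 in replicate 1. P4 untreated replicate 2 was the lowest for 6 genes, with markers highest, at 10.06. How many of all genes followed the markers was not counted. *Xirp2* varied most, at 261, 785 and 684 normalized counts in P1 treated replicates 1 to 3, a coefficient of variation of 48.2%. *Triobp* varied least in that group, at 5.23%. Without P1 treated replicate 1 or P1 untreated replicate 3, limma again called 0 of the 10 genes between treated and untreated cochleae at P1.

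As deviations from the group mean over the 11 libraries, Pearson's r with the 5 markers was 0.91 for *Ptprq*, 0.84 for *Xirp2*, 0.82 for *Fscn2*, 0.80 for *Espn*, 0.79 for *Loxhd1*, 0.78 for *Whrn*, 0.68 for *Grxcr1*, 0.65 for *Eps8l2* and 0.62 for *Triobp*, and -0.17 for *Eps8*. *Eps8* stood at 2034 in P1 treated replicate 1, the lowest of its group in the markers, and at 997 in P1 untreated replicate 2, the highest of its group in them. Its own r within groups was negative with 8 of the 9 other genes. Of the 45 pairs of the 10 genes, 37 had a positive r within groups, and *Fscn2* with *Xirp2* had the highest at 0.99. These are descriptions over libraries that share a normalization, and the 4 P1 libraries named above lay farthest from their group means in the markers.

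**Figure D4:**
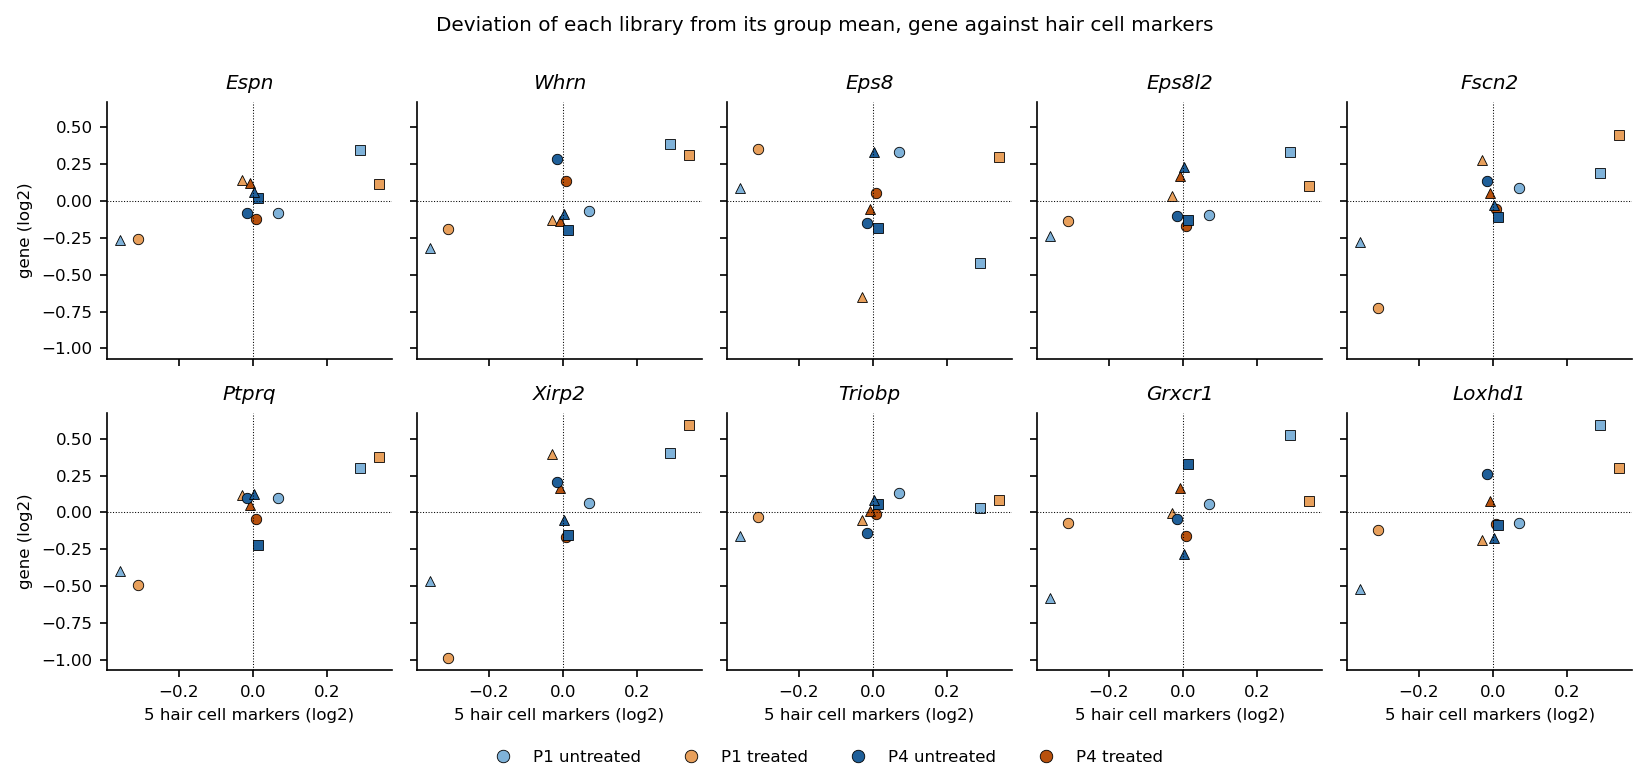
Deviation of each library from its group mean, on the log2 scale, for each of the 10 hair bundle genes (vertical axes) against the mean of 5 hair cell markers (horizontal axes), colored by group and with replicates as symbols as in the plot of normalized counts by library (circle, square and triangle for 1, 2 and 3). The P4 libraries lie near 0 on the horizontal axis, and the P1 libraries spread along it with *Ptprq* (r = 0.91) and not with *Eps8* (r = -0.17).

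The spread of the 10 genes was smaller at P4 in untreated libraries. The coefficient of variation was lower in P4 than in P1 untreated libraries for all 10 genes, with medians of 13.9% and 24.5%, while it was lower for 45.9% of all genes. The medians of all genes were 13.4% at P4 and 12.5% at P1, so the 10 genes were near them at P4 and above them at P1. Most of the 10 genes varied together from pup to pup, so they are not 10 independent observations. The 5 hair cell markers were also closer together at P4. In treated libraries the coefficient of variation was lower at P4 for 8 of the genes and higher for *Eps8l2* (8.32% at P1 and 16.5% at P4) and *Grxcr1* (5.35% and 15.9%). The share of all genes was not counted there, and 2 P4 libraries were set against 3 at P1, so the 8 are no result about bundle genes. This is a description of 2 or 3 libraries in each group.

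The genes whose levels were most like those of the bundle genes were found by Pearson's r over the 11 libraries, among all genes tested. *Gfi1*, which encodes a hair cell transcription factor, was among the 3 closest to *Espn* (r = 0.93) and among the 10 closest to the mean of the 10 genes (r = 0.89). *Grxcr1* had *Nme5* (0.96), *Grxcr2* (0.96) and *Tatdn2* (0.93) as its closest genes, *Whrn* had *Rnf24* (0.99), *Cdc23* (0.97) and *Fubp3* (0.96), and *Loxhd1* had *Cd200r2* (0.97), *Dot1l* (0.96) and *Dytn* (0.94). The closest gene was *Ccser2* for *Eps8l2* (0.96), *Rbm5* for *Triobp* (0.96), *Gm906* for *Xirp2* (0.94), *Kif5c* for *Ptprq* (0.93), *BC030500* for *Fscn2* (0.92) and *Gpx3* for *Eps8* (0.88). None of the 10 genes was among the 3 closest to another.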

How the data were processed

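The 10 genes, the gene lists and the alternatives were chosen with earlier results of these data known. Sequencing libraries were made by the authors with the SMARTer V4 and ThruPLEX kits, which do not mark strand. Per the labels and the paper's methods, the authors aligned reads to mm10 with STAR 2.5.2b, used featureCounts in quality control, estimated transcript levels with Sailfish and tximport, and ran DESeq2. The deposited values are a score per gene, namely counts divided by a size factor and rounded to whole numbers. The sources used here do not say which counts they were made from. Of 27755 rows, 1 with a repeated ID was left out. limma 3.58.1 in R 4.3.3 was fitted to log2(normalized count + 1) with 4 group means and a trend of the spread, for 18400 genes with a mean of at least 10. Methods for raw counts were not used. The replicates came from different pups.

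The text names all 10 genes, the called genes of each other bundle list (up to 3 per list and comparison, by adjusted p), and the 3 genes closest to each of the 10 and the 10 closest to their mean, of which the text gives those it describes. Residuals of untreated libraries with the same replicate number had a small positive correlation between the ages (r of 0.135, 0.136 and 0.115 for replicates 1, 2 and 3). The labels do not pair these libraries, and whether they are paired is not known. In the other comparisons r was at most 0.026. On simulated data with 18400 genes, 200 genes were changed in each comparison. The test called 54% of 2-fold and 85% of 4-fold changes between untreated ages and 42% and 72% between treated ages. For treatment it called 53% and 74% at P1 and 46% and 75% at P4. In the measured data, 19.9% of genes were called between untreated and 11.1% between treated ages. Far more genes were thus called there than were changed in simulation, so the simulated shares need not hold for the ages. Positions are from GENCODE M21 on GRCm38 (mm10).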

Additional observations from a re-analysis of the deposited data

How the results depend on the processing

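The count of the 10 hair bundle genes called between untreated ages was 3, and it was 0 with log2 *Xist* as a covariate (adjusted p from limma of 0.0812 for *Whrn*, 0.146 for *Grxcr1* and 0.0841 for *Loxhd1*), a fit that called 1807 of 18400 genes. In every other alternative, and without each library in turn, 2 to 3 were called, but not always the same genes. Without P1 untreated replicate 1 or P4 untreated replicate 1, *Whrn* alone of the 3 was still called and *Triobp* was gained, and without P1 untreated replicate 2, *Eps8l2* was gained and *Grxcr1* lost. The replicate block gave 3 calls (1 higher and 2 lower) and changed no call of the 10 genes. The *Grxcr1* call was lost with no filter on low values (adjusted p = 0.0652), no trend of the spread (0.0716), only the groups compared (0.0948) and quantile normalization (0.0751). In the other 4 comparisons, the interaction included, the count was 0 in every alternative run. Of 870 single values under alternatives, 789 kept their direction and side of the threshold, 14 lost a call, 3 gained one and 0 called values reversed. The other 64 were uncalled differences that changed sign. For the called genes of the other bundle lists, 42 of 42 values kept their direction and 35 their call under other scalings, and the alternatives for these genes were chosen after seeing the data. The files hold no raw counts, so the depth behind a value is not known exactly. With 2 or 3 libraries in a group, 2-fold changes were often missed in simulation, where 200 of 18400 genes changed.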
